A study of Rattus norvegicus with 3 samples.

Results

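The genes described here are 10 textbook targets of the glucocorticoid receptor, Fkbp5, Tsc22d3, Per1, Sgk1, Zbtb16, Pdk4, Klf9, Errfi1, Ddit4 and Cdkn1a, followed across the cells of the rat brain. They were found by gene symbol among the 30560 features of the count tables. Of the 10 genes, 9 were found, and Tsc22d3, which had no feature under that symbol, was not analysed here. Their raw UMIs (unique molecular identifiers, each standing for a captured RNA molecule) were summed in every library over all barcodes, and in every cell class that a gate on marker UMIs set apart.

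The nuclei came from the brains of 12-week-old female Crl:CD(SD) rats, an outbred stock, with the wild-type genotype. The animals received LPS (lipopolysaccharide, a wall component of Gram-negative bacteria) at 5 mg/kg, poly(I:C) (a synthetic double-stranded RNA that mimics a viral infection) at 12 mg/kg, or saline, each intraperitoneally, and were sampled 7 hours later. Nuclei of 4 animals were pooled in each library and there was 1 library per treatment, so the spread between animals is unknown and no difference below has a replicate check. Both stimuli were given outside the brain, and the labels name no brain region.

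Glucocorticoids, in the rat mainly corticosterone, are released by the adrenal gland under stress and infection. They enter cells and bind the glucocorticoid receptor, a transcription factor that Nr3c1 encodes and that then moves into the nucleus and binds response elements near its target genes. Many cell types share a small set of such targets, among them feedback inhibitors of the receptor, clock genes, kinases and metabolic enzymes, and several of these genes are also induced by growth factors, low oxygen or DNA damage. In the brain, Fkbp5 and Sgk1 are widely used readouts of corticosterone.

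The LPS, poly(I:C) and saline libraries held 11211, 15001 and 25435 barcodes with 29763787, 21340578 and 35532360 UMIs. The median barcode carried 2436 UMIs after LPS, 1264 after poly(I:C) and 1165 after saline, so depth per nucleus differs between the libraries, and levels are given as UMIs per 1000000 UMIs (CPM) of the same library or class. Of the nuclei with at least 500 genes and at most 5% mitochondrial UMIs, the gates assigned 68.3% after LPS, 45.5% after poly(I:C) and 43.7% after saline to a class. LPS and saline shared 420 barcodes, poly(I:C) and saline 550, and LPS and poly(I:C) 247. Intervals in brackets are exact 95% intervals of counting error only. A gene is said to be past 2-fold when the ratio of CPM is at least 2, or at most the inverse of it, with at least 10 UMIs over both libraries. CPM values are compared between libraries and classes for the same gene, never between genes, because transcript lengths were not used.

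Most gated classes carried their own markers. In the endothelial class all 11 markers found had UMIs in every library, and so did all 14 astrocyte markers and all 6 oligodendrocyte precursor markers. The inhibitory neuron gate was led by Adarb2, a marker of one branch of cortical interneurons that other neurons also carry, with 3893 CPM after LPS, 4455 CPM after poly(I:C) and 4334 CPM after saline. Gad1, which encodes a GABA-synthesising enzyme, stood at 249, 301 and 230 CPM there in the same order, against 1.64 to 5.16 CPM in the excitatory gate. A UMI of Gad1, Gad2 or Slc32a1 was present in 59.4%, 51.1% and 45.2% of its nuclei after LPS, poly(I:C) and saline, so these nuclei are called Adarb2-led neurons below. The striatal projection neuron gate was led by Pde10a, with Rgs9 at 611 CPM after LPS, 986 CPM after poly(I:C) and 688 CPM after saline, against 8.96 to 25.5 CPM in the other neuron gates.

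Promoters of 3 genes are shown because the class differences described below turn on Errfi1 in endothelial nuclei, Fkbp5 in oligodendrocytes and astrocytes, and Sgk1, which ran the other way in astrocytes. The sequences are RefSeq promoters of the GRCr8 assembly, from 250 bases before to 50 after a gene start, 5′ to 3′ on the gene's strand, with the letters TATAAA in capitals. The Errfi1 promoter is chr5:166606591-166606890 on the plus strand, the Fkbp5 promoter chr20:6543506-6543805 on the minus strand, and the Sgk1 promoter, the most downstream of its 3 starts, chr1:24804782-24805081 on the minus strand.
Errfi1: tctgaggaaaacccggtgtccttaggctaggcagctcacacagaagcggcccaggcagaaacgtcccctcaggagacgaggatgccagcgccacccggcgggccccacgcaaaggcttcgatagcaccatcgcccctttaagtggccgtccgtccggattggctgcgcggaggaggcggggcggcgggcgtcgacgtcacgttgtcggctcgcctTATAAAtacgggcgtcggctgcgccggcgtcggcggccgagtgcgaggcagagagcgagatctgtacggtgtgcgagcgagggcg
Fkbp5: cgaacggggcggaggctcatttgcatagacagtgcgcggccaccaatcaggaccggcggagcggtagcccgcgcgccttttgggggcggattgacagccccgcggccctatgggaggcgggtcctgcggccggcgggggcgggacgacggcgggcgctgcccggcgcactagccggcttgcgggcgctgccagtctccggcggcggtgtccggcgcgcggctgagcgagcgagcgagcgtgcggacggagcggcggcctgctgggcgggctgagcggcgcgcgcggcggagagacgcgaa
Sgk1: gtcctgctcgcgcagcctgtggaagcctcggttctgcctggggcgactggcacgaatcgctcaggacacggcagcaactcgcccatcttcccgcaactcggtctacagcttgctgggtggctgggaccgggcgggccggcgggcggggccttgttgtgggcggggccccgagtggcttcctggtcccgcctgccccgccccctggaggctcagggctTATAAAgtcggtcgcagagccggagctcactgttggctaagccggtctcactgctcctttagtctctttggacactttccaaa

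Of the 10 genes, 9 had at least 1 promoter in that table, with 13 promoters in all, and Zbtb16 had none. None of the 13 windows held, on either strand, the consensus glucocorticoid response element (AGAACA and TGTTCT with 3 bases between them), its relaxed core (GNACA and TGTNC with 3 bases between them) or the half-site TGTTCT, letters that 0.0149%, 0.439% and 20.7% of all 33469 promoters in the table held. The relaxed core also matches every full element, and the half-site lies inside the full element. The E-box CACGTG (6.42% of all promoters) and the cyclic AMP response element TGACGTCA (1.83%) were not in these windows either. TATAAA, searched after the other motifs were seen to be absent, stood 35 bases before the Errfi1 start, 33 bases before the Sgk1 start shown and 55 bases before another Sgk1 start, and in 1 Tsc22d3 promoter, against 14.2% of all promoters. The Fkbp5 window shown has no TATAAA, and holds CCAAT 208 bases before the start, letters found on either strand of 37.5% of all promoters.

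Over all barcodes, most genes of the set differed little from saline. After LPS, Fkbp5, Pdk4, Cdkn1a and Errfi1 were higher than after saline, Klf9 and Sgk1 slightly higher, and Per1 lower. After poly(I:C), Cdkn1a and Errfi1 were higher than after saline, Fkbp5, Klf9, Zbtb16 and Sgk1 slightly higher, and Ddit4 lower. In bulk sums like these, a change in the mix of cell classes and a change within cells cannot be told apart. The mix of gated classes did differ. Of nuclei within the gene and mitochondrial limits, oligodendrocytes were 3.42% after LPS, 0.412% after poly(I:C) and 0.670% after saline. Astrocytes were 1.86%, 0.236% and 0.276% in the same order, and oligodendrocyte precursors 1.43%, 0.130% and 0.159%. These gates ask that the neuronal list not exceed the class list, and the share of nuclei gated differed between the libraries. The part of gate yield in these shares was not tested.

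Fkbp5 encodes a co-chaperone that lowers the hormone affinity of the glucocorticoid receptor, a negative feedback. It stood at 69.4 CPM after LPS, 51.8 CPM after poly(I:C) and 47.8 CPM after saline, from 2065, 1105 and 1698 UMIs. The LPS library was highest and the other libraries lay close together. The ratio was 1.45 [1.36 to 1.55] for LPS against saline and 1.08 [1.0 to 1.17] for poly(I:C) against saline.

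Among the transcription factors, the period clock gene Per1 had 6.89 CPM after LPS, 8.25 CPM after poly(I:C) and 9.01 CPM after saline. It was lowest after LPS, at a ratio of 0.765 [0.639 to 0.914] to saline. Klf9, a Krüppel-like factor, had 54.9 CPM after LPS, 52.9 CPM after poly(I:C) and 47.5 CPM after saline, with ratios to saline of 1.16 [1.08 to 1.24] and 1.11 [1.03 to 1.2]. Zbtb16, a zinc finger repressor also known as PLZF, had 204 CPM after LPS, 216 CPM after poly(I:C) and 198 CPM after saline. Its ratio to saline was 1.03 [0.997 to 1.07] after LPS and 1.09 [1.05 to 1.13] after poly(I:C), so all 3 libraries lay within a narrow range.

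Among the signalling genes, the serum- and glucocorticoid-regulated kinase Sgk1 had 148 CPM after LPS, 149.6 CPM after poly(I:C) and 138 CPM after saline. Ratios to saline were 1.07 [1.03 to 1.12] and 1.09 [1.04 to 1.14]. Errfi1, which encodes the EGF receptor inhibitor MIG6, had 26.0 CPM after LPS, 25.7 CPM after poly(I:C) and 19.6 CPM after saline, and was similarly higher after both stimuli, at 1.32 [1.19 to 1.47] and 1.31 [1.17 to 1.46]. Ddit4, which encodes the mTOR complex inhibitor REDD1, had 12.1 CPM after LPS, 6.56 CPM after poly(I:C) and 11.1 CPM after saline. Here the poly(I:C) library stood apart below the others, at 0.589 [0.482 to 0.716] of saline, while LPS was at 1.09 [0.938 to 1.26].

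Pdk4, a mitochondrial kinase that shuts off pyruvate dehydrogenase, had 5.81 CPM after LPS, 3.37 CPM after poly(I:C) and 2.45 CPM after saline, from 173, 72 and 87 UMIs. It was highest after LPS, with a ratio of 2.37 [1.82 to 3.11] to saline, against 1.38 [0.994 to 1.91] for poly(I:C). Cdkn1a encodes p21, an inhibitor of cyclin-dependent kinases, and had 4.54 CPM after LPS, 5.62 CPM after poly(I:C) and 2.28 CPM after saline, from 135, 120 and 81 UMIs. Both stimuli stood above saline, at 1.99 [1.5 to 2.65] and 2.47 [1.85 to 3.31].

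**Figure D1:**
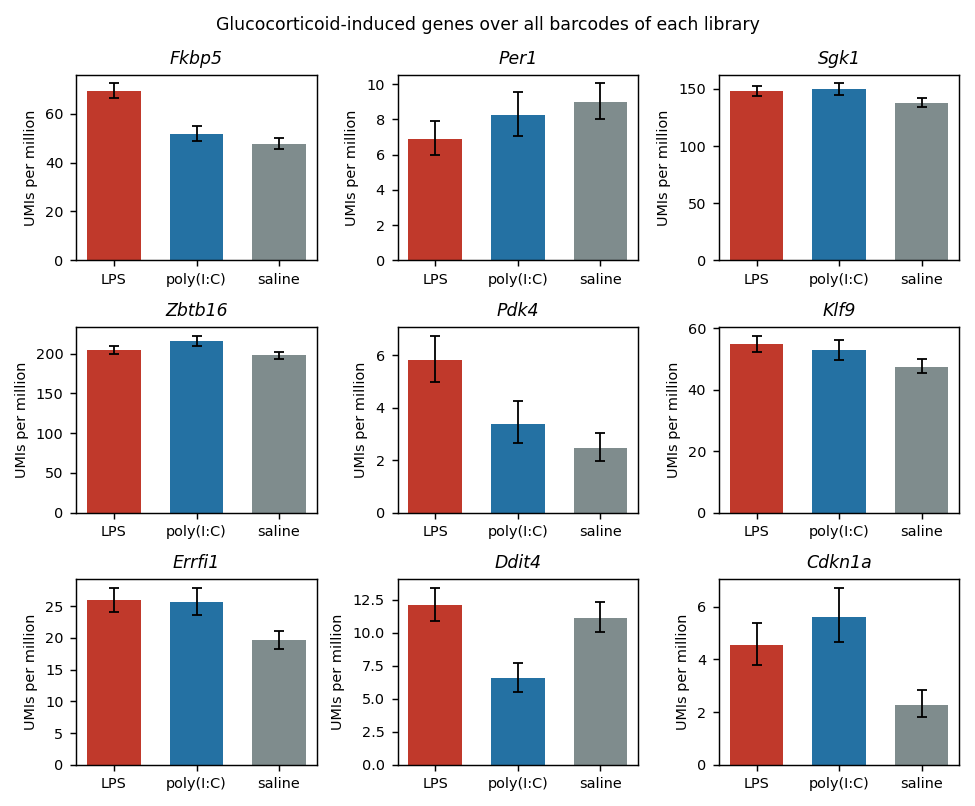
Levels of the 9 genes over all barcodes of each library, in UMIs per 1000000, with LPS, poly(I:C) and saline from left to right and exact 95% Poisson intervals as error bars (counting error only). Pdk4 and Fkbp5 are highest after LPS, Cdkn1a and Errfi1 are above saline after both stimuli, and Ddit4 is lowest after poly(I:C).

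Of the 9 genes, 1 (Pdk4) was past 2-fold higher after LPS than after saline, against 3.24% of the 17539 genes measured. Likewise 1 (Cdkn1a) was past 2-fold higher after poly(I:C), against 2.87% of 17268 genes, and none was past 2-fold lower in either comparison, against 2.85% of genes after LPS and 4.37% after poly(I:C). These comparisons share the saline library. The interval lay above 1 for 6 genes and below 1 for 1 gene after LPS, against 13.8% and 18.8% of all genes, and likewise for 6 and 1 after poly(I:C), against 10.9% and 24.8%. Past 1.2-fold, 4 genes were higher and 1 lower after LPS, against 13.8% and 17.5% of all genes, and 3 were higher and 1 lower after poly(I:C), against 10.9% and 27.4%. The median log2 ratio of the 9 genes was 0.21 after LPS and 0.13 after poly(I:C), beside medians over all genes of -0.03 and -0.09. The median-ratio scaling, an alternative normalisation, put Cdkn1a past 2-fold after LPS too.

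LPS was also compared with poly(I:C) directly. Fkbp5 was higher after LPS, at 1.34 [1.24 to 1.44], as were Pdk4 at 1.72 [1.30 to 2.30] and Ddit4 at 1.84 [1.51 to 2.26]. Zbtb16 was slightly lower, at 0.944 [0.908 to 0.981]. None of the 9 genes was past 2-fold in either direction, against 3.78% of 17016 genes higher and 2.18% lower, and 3 intervals lay above 1 and 1 below it, against 18.6% and 10.1% of genes. The intervals of the other 5 genes included 1. Those intervals allow ratios between 0.626 and 1.13 for these 5, so the values do not show that the stimuli act alike on them.

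Within cell classes, most pairs of gene and class past 2-fold lay in glia and vessels, where far fewer UMIs were counted and genes as a whole passed 2-fold more often than in neurons. A class entered a comparison with 30 or more gated nuclei in each library, and the UMIs of a class were summed and divided by the total of the class. Over 54 pairs of gene and class, 11 were past 2-fold higher and 2 past 2-fold lower after LPS against saline. The 5 non-neuronal classes that hold these pairs had between 9.58% and 18.9% of all genes past 2-fold higher and between 9.13% and 17.1% past 2-fold lower. No such pair lay in the excitatory, striatal or Adarb2-led neurons, where 2.01%, 2.40% and 2.24% of all genes were past 2-fold higher and 3.2%, 3.41% and 2.46% past 2-fold lower. The 11 pairs include Ddit4 in astrocytes, counted because saline had no UMI, with an exact interval from 1.18 upward. Of the 11, 6 had an interval that left out 1. After poly(I:C), 3 of 42 pairs were past 2-fold higher and 6 past 2-fold lower. In the endothelial, astrocyte and oligodendrocyte classes between 7.24% and 12.4% of all genes were higher and between 13.4% and 22.9% lower. The minimum of 10 UMIs lets a scarce gene enter mainly through the library where it is high, so the counts are read only beside these shares. Striatal projection neurons held no such pair after poly(I:C), against 2.31% of genes higher and 6.63% lower.

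**Figure D2:**
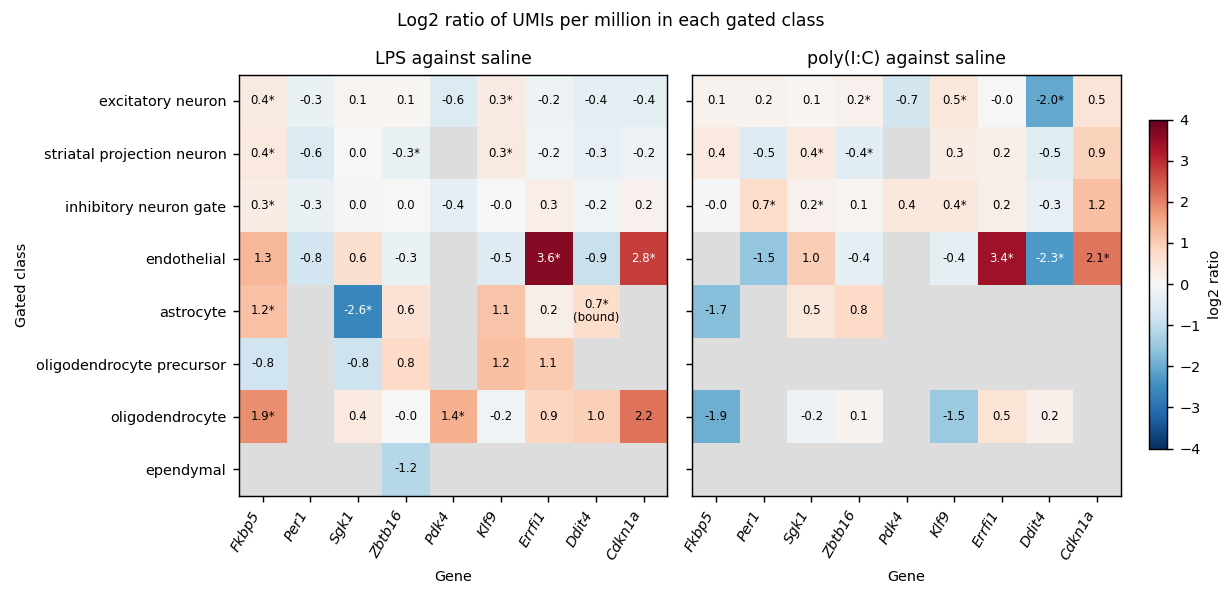
Log2 ratio of UMIs per 1000000 for LPS against saline (left) and poly(I:C) against saline (right), with gated classes down and genes across. Stars mark ratios whose 95% counting interval leaves out 1, and grey cells had under 10 UMIs or under 30 nuclei. The word "bound" marks a ratio to a floor of 3 UMIs where saline had 0. Errfi1 and Cdkn1a in endothelial nuclei stand out after both stimuli, Fkbp5 in oligodendrocytes and astrocytes after LPS, and Sgk1 in astrocytes is low after LPS.

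In endothelial nuclei, which line the vessels of the brain and form its barrier, Errfi1 and Cdkn1a were higher after both stimuli. Errfi1 had 285 CPM after LPS, 239.6 CPM after poly(I:C) and 22.9 CPM after saline, from 35, 17 and 5 UMIs in 103, 63 and 194 nuclei. The ratio to saline was 12.5 [4.87 to 40.8] after LPS and 10.5 [3.71 to 36.3] after poly(I:C). These UMIs lay in 22 nuclei after LPS, 11 after poly(I:C) and 5 after saline, with at most 4, 6 and 1 in a nucleus. In saline, the endothelial interval of 7.43 to 53.4 CPM took in the Errfi1 levels of the striatal, excitatory and Adarb2-led neurons, which had 24.4, 18.4 and 17.7 CPM.

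Cdkn1a had 220.1 CPM after LPS, 141 CPM after poly(I:C) and 32.0 CPM after saline in endothelial nuclei, from 27, 10 and 7 UMIs. Ratios to saline were 6.87 [2.92 to 18.7] and 4.40 [1.51 to 13.6]. The endothelial class held 20% of the gene's UMIs of the LPS library, in 0.982% of its kept nuclei. In the LPS library its Cdkn1a interval, 145 to 320.2 CPM, lay apart from that of the next class, oligodendrocytes with 30.1 CPM [15.6 to 52.6].

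Ddit4 ran the other way in this class, with 73.4 CPM after LPS, 28.2 CPM after poly(I:C) and 137 CPM after saline, from 9, 2 and 30 UMIs. Its ratio to saline was 0.534 [0.223 to 1.16] after LPS and 0.205 [0.0238 to 0.810] after poly(I:C). In saline, endothelial nuclei had the highest Ddit4 level of all classes compared, though the interval overlapped that of oligodendrocytes. Fkbp5 had 7, 2 and 5 UMIs after LPS, poly(I:C) and saline in endothelial nuclei, which gave 57.1, 28.2 and 22.9 CPM and a ratio of 2.49 [0.681 to 9.97] after LPS. Sgk1 had 179 CPM after LPS, 225.5 CPM after poly(I:C) and 114 CPM after saline, at 1.57 [0.843 to 2.90] of saline after LPS and 1.97 [0.984 to 3.84] after poly(I:C). In nuclei without a neuronal UMI the Sgk1 ratio after LPS was 2.73 [1.02 to 8.54], from 16 and 6 UMIs, which leaves out 1. Zbtb16 was 391 CPM after LPS, 366.5 CPM after poly(I:C) and 471 CPM after saline, and Klf9 was 114, 127 and 165 CPM in the same order, none of them apart from saline beyond counting error. The Zbtb16 ratio after LPS depended on which nuclei were kept. It was 0.504 [0.269 to 0.893] with at least 1000 genes per nucleus, 0.549 [0.316 to 0.931] in nuclei without a neuronal UMI, and 3.76 [1.42 to 11.0], on the other side of 1, in the few nuclei without a mural UMI (14 UMIs after LPS against 7 after saline). No direction is read from it.

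Counts in this class stand beside a high background. After LPS, 3 of 8 measured genes were past 2-fold higher in endothelial nuclei, against 14% of 6960 genes, and after poly(I:C) 2 of 7 were, against 12.4% of 6210 genes. Lower after poly(I:C) were 2 of 7, Ddit4 and Per1 (1 UMI against 9), against 22.9% of genes. The third gene past 2-fold higher after LPS was Fkbp5.

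Markers of other cells were present in the endothelial class. Of 9 mural markers, 7 had UMIs in each library, with summed levels of 2478 CPM after LPS, 1663 CPM after poly(I:C) and 2512 CPM after saline, against endothelial list sums of 12494, 7696 and 9745 CPM. Only 13, 14 and 23 of these nuclei had no UMI of the mural list, too few for a value of Errfi1 or Cdkn1a, so mural and endothelial signal cannot be told apart in this class. The neutrophil list had UMIs of 7 of its 10 genes after LPS, 2 after poly(I:C) and 1 after saline, with sums of 1198, 226 and 4.58 CPM. Mmp9, Ngp and Ltf were at 0 in all 3 libraries. In nuclei without any UMI of the neutrophil list, Errfi1 was at 271 CPM after LPS and 23.0 CPM after saline, a ratio of 11.8 [4.53 to 38.7], and Cdkn1a at 7.04 [2.98 to 19.2]. Erythroid genes summed to 4311 CPM after LPS, 5610 CPM after poly(I:C) and 7704 CPM after saline, and without nuclei holding them the ratio after LPS was 12.1 [2.95 to 107] for Errfi1 and 4.61 [1.67 to 15.8] for Cdkn1a. The neuronal list stood at 529.8, 1607 and 1377 CPM after LPS, poly(I:C) and saline. In the 63 LPS and 84 saline nuclei without any such UMI, Errfi1 had 25 UMIs after LPS and 0 after saline. The exact interval of that ratio ran from 6.45 upward, and against a floor of 3 UMIs LPS was 8.55-fold higher.

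In oligodendrocytes, the myelinating glia, Fkbp5 and Pdk4 were higher after LPS. Fkbp5 had 243.5 CPM after LPS, 17.5 CPM after poly(I:C) and 67.0 CPM after saline, from 97, 1 and 10 UMIs in 359, 54 and 143 nuclei. The LPS library stood above both others, at 3.63 [1.89 to 7.81] against saline and 13.9 [2.44 to 556] against poly(I:C). Pdk4 had 108 CPM after LPS, 17.5 CPM after poly(I:C) and 40.2 CPM after saline, from 43, 1 and 6 UMIs, at 2.68 [1.14 to 7.71] against saline. Those 43 UMIs, in 40 nuclei, were 24.9% of the gene's UMIs of the LPS library, and its interval of 78.1 to 145 CPM lay apart from that of every other class of that library compared. In excitatory neurons Pdk4 had 0.615 CPM after LPS, 0.547 CPM after poly(I:C) and 0.903 CPM after saline.

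Other genes of the set were less separated in oligodendrocytes. Ddit4 had 118 CPM after LPS, 69.9 CPM after poly(I:C) and 60.3 CPM after saline, a ratio to saline of 1.96 [0.947 to 4.54] after LPS. Errfi1 had 110.4 CPM after LPS, 87.4 CPM after poly(I:C) and 60.3 CPM after saline, at 1.83 [0.882 to 4.26] after LPS. Sgk1 had 299 CPM after LPS, 192 CPM after poly(I:C) and 228 CPM after saline. Of the LPS classes with at least 30 nuclei oligodendrocytes were highest for Sgk1. Their interval overlapped those of microglia or macrophages, oligodendrocyte precursors and endothelial nuclei. Zbtb16, at 437 CPM after LPS, 489 CPM after poly(I:C) and 442.5 CPM after saline, did not separate the libraries. Cdkn1a had 12 UMIs after LPS, 1 after poly(I:C) and 1 after saline, a ratio to saline of 4.49 [0.665 to 192]. In all, 3 of 8 measured genes (Fkbp5, Pdk4 and Cdkn1a) were past 2-fold higher after LPS, against 9.58% of 7089 genes, and none past 2-fold lower, against 9.13%. After poly(I:C) none of 6 was past 2-fold higher, against 7.24% of genes, and 2 of 6 (Fkbp5 and Klf9) past 2-fold lower, against 13.4% of 4048 genes, both with intervals that included 1.

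Neuronal RNA was lower in the LPS glia, which moves with these results. The neuronal list summed to 853 CPM after LPS, 2377 CPM after poly(I:C) and 1817 CPM after saline in oligodendrocytes, with all 6 genes present in each library. In oligodendrocyte nuclei without any UMI of that list, Fkbp5 had 62 UMIs in 209 LPS nuclei and 0 in 39 saline nuclei, with an interval of the ratio from 2.68 upward, and Pdk4 had 22 and 0 UMIs with an interval from 0.900 upward. With the stricter gate of 6 marker UMIs from 3 genes, the Pdk4 ratio was 1.58 [0.654 to 4.59], while that of Fkbp5 was 3.30 [1.53 to 8.45].

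In astrocytes, Fkbp5 was above saline and Sgk1 below it after LPS. Fkbp5 had 372 CPM after LPS, 50.7 CPM after poly(I:C) and 164 CPM after saline, from 76, 2 and 11 UMIs in 195, 31 and 59 nuclei. LPS stood at 2.27 [1.2 to 4.74] of saline and at 7.34 [1.96 to 61.7] of poly(I:C), and this was the highest Fkbp5 level of any class in the LPS library. Sgk1 had 39.2 CPM after LPS, 329.7 CPM after poly(I:C) and 238 CPM after saline, from 8, 13 and 16 UMIs. It was lowest after LPS, at 0.164 [0.0609 to 0.407] of saline and 0.119 [0.0427 to 0.309] of poly(I:C). The Sgk1 level of LPS astrocytes was below the interval of every neuron gate of the same library, which ran from 117 to 226 CPM.

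In astrocytes Ddit4 had 15 UMIs (73.4 CPM) after LPS, 5 (127 CPM) after poly(I:C) and 0 after saline. The exact upper limit of those 0 UMIs is 54.97 CPM. Against a floor of 3 UMIs, 44.7 CPM, LPS was 1.64-fold higher. The exact interval of the ratio ran from 1.18 upward, so a 2-fold difference is not shown. Zbtb16 had 289 CPM after LPS, 329.7 CPM after poly(I:C) and 194 CPM after saline, with overlapping intervals. Klf9 had 132 CPM after LPS, 127 CPM after poly(I:C) and 59.6 CPM after saline, a ratio of 2.22 [0.773 to 8.72] after LPS from 27 and 4 UMIs. Without nuclei that held a neuronal UMI the Klf9 ratio was 0.786 [0.178 to 7.17], on the other side of 1. Among 6 measured genes, 3 were past 2-fold higher after LPS, against 18.9% of 5094 genes, and 1 (Sgk1) past 2-fold lower, against 12.1%. The 3 were Fkbp5, Klf9 and Ddit4, the last counted because saline had 0 UMIs. After poly(I:C) 1 of 3 (Fkbp5, 2 UMIs against 11) was past 2-fold lower, against 15% of 2305 genes, and with all deposited barcodes gated this Fkbp5 ratio was 1.02 [0.339 to 2.80].

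Neuronal RNA moved with the astrocyte values as well. The neuronal list stood at 1087 CPM after LPS, 2612 CPM after poly(I:C) and 2280 CPM after saline, and the striatal projection neuron list at 1106, 2942 and 2235 CPM. Sgk1 is expressed in striatal projection neurons, at 208.5 CPM after LPS, 267 CPM after poly(I:C) and 205 CPM after saline, and the part of neuronal RNA in the lower astrocyte value was not tested beyond this. In astrocyte nuclei without any neuronal UMI, Fkbp5 had 51 UMIs in 113 LPS nuclei and 3 in 13 saline nuclei, a ratio of 2.06 [0.665 to 10.3], and Sgk1 had fewer than 10 UMIs over both libraries. Median-ratio scaling divides the ratios of a class by their median over genes with at least 50 UMIs in both libraries. In astrocytes that median was -0.51 log2 for LPS against saline. Over all measured genes with UMIs in both libraries the median was 0.09. The scaling put Fkbp5 at 3.23 [1.71 to 6.74] and Sgk1 at 0.234 [0.0866 to 0.579].

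**Figure D3:**
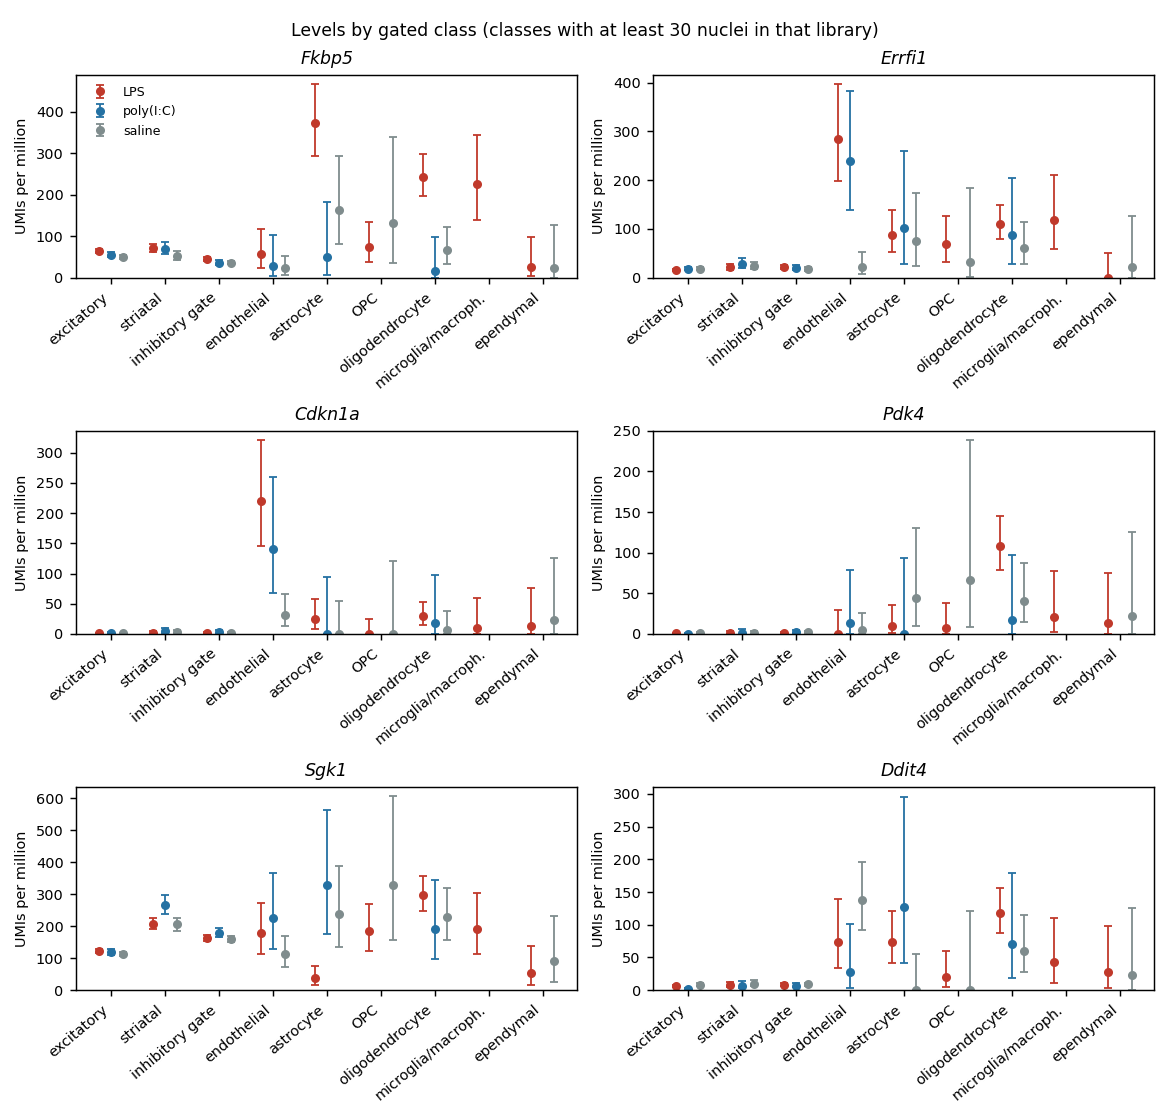
UMIs per 1000000 of 6 genes in each gated class, with LPS, poly(I:C) and saline from left to right within a class and exact 95% Poisson intervals (counting error only). Only classes with at least 30 nuclei in that library are drawn. The high points are Fkbp5 in LPS astrocytes, oligodendrocytes and microglia or macrophages, Errfi1 and Cdkn1a in endothelial nuclei after both stimuli, and Pdk4 in LPS oligodendrocytes.

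Smaller classes gave few values. Microglia or macrophages numbered 64 after LPS but 25 after poly(I:C) and 20 after saline, under the minimum for a comparison. Their Fkbp5 level after LPS was 225 CPM [139 to 343], an interval that overlapped that of LPS oligodendrocytes and lay apart from that of LPS oligodendrocyte precursors. Errfi1 was at 118 CPM [58.7 to 211] in these LPS nuclei and Per1 had no UMI, where a floor of 3 UMIs is 32.1 CPM and the exact upper limit 39.5 CPM. RNA of other cells was present in these 64 nuclei, with the oligodendrocyte list at 1401 CPM (11 of 12 genes, Gjb1 at 0), the neuronal list at 2022 CPM (6 of 6) and the inhibitory neuron list at 2161 CPM (5 of 7), against 7392 CPM of their own list. Its part in the Fkbp5 level was not tested. In oligodendrocyte precursors (150 LPS and 34 saline nuclei) Klf9 and Errfi1 were the 2 of 5 measured genes past 2-fold higher after LPS, against 17.8% of 3384 genes, each with 1 UMI in saline. Their ratios were 2.28 [0.331 to 98.2] and 2.07 [0.295 to 90.0]. In ependymal nuclei only Zbtb16 was measured, with 81.2 CPM after LPS and 181 CPM after saline, past 2-fold lower at 0.449 [0.128 to 1.48], against 12.5% of 2877 genes lower and 18.2% higher. Counting error does not separate LPS from saline for any of these 3 values.

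Nuclei that no gate took also carried the scarcer genes. Among these 3322 LPS, 7149 poly(I:C) and 12006 saline nuclei, Pdk4 had 6.63 CPM after LPS, 4.14 CPM after poly(I:C) and 1.93 CPM after saline, at 3.43 [2.15 to 5.56] and 2.15 [1.31 to 3.54] of saline. Cdkn1a had 5.96, 4.45 and 2.05 CPM in the same order, at 2.90 [1.81 to 4.70] and 2.17 [1.35 to 3.51]. These were the 2 of 9 genes past 2-fold higher after each stimulus, against 5.02% of 15782 genes after LPS and 2.55% of 15786 genes after poly(I:C). None was past 2-fold lower, against 2.74% and 4.57%. The cell types of these nuclei are not known.

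In neurons the genes were counted at far higher depth, and those past 2-fold of saline were Ddit4 in excitatory and Cdkn1a in Adarb2-led neurons, both after poly(I:C). Fkbp5 had 65.1 CPM after LPS, 55.1 CPM after poly(I:C) and 50.3 CPM after saline in excitatory neurons, from 741, 302 and 390 UMIs. Striatal projection neurons had 70.5 CPM after LPS, 70.4 CPM after poly(I:C) and 53.2 CPM after saline, and Adarb2-led neurons 44.7, 35.7 and 36.6 CPM in the same order. The LPS to saline ratio was 1.29 [1.14 to 1.47], 1.32 [1.04 to 1.69] and 1.22 [1.03 to 1.45] in these 3 classes. Without predicted doublets the excitatory ratio was 1.26 [1.11 to 1.44], whereas in Adarb2-led neurons the log2 ratio came to 0.02. Poly(I:C) was at 1.09 [0.939 to 1.28] of saline in excitatory neurons and at 1.32 [0.989 to 1.77] in striatal projection neurons.

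Klf9 was higher in excitatory neurons after both stimuli, with 53.1 CPM after LPS, 58.4 CPM after poly(I:C) and 42.3 CPM after saline. Its ratios to saline were 1.25 [1.09 to 1.44] and 1.38 [1.18 to 1.61]. In Adarb2-led neurons Klf9 had 39.9 CPM after LPS, 53.4 CPM after poly(I:C) and 40 CPM after saline, so only poly(I:C) stood above saline there, at 1.33 [1.10 to 1.61]. Restricted to nuclei with a Gad1, Gad2 or Slc32a1 UMI, that ratio was 1.46 [1.08 to 1.95]. Klf9 in striatal projection neurons was at 1.27 [1.01 to 1.61] of saline after LPS and 1.24 [0.931 to 1.64] after poly(I:C).

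Sgk1 in striatal projection neurons was higher after poly(I:C), at 1.30 [1.12 to 1.5] of saline, while LPS was at 1.02 [0.893 to 1.15]. In nuclei of this gate with Drd2 or Adora2a, which mark the indirect pathway, and without Drd1, Sgk1 had 223 CPM after LPS, 302 CPM after poly(I:C) and 194 CPM after saline, at 1.56 [1.21 to 2.0] for poly(I:C) against saline. Nuclei with Drd1 and without Drd2 or Adora2a, which mark the direct pathway, had 237, 224.5 and 238 CPM in the same order, at 0.942 [0.503 to 1.73] from 20 and 28 UMIs, an interval that overlaps that of the Drd2 nuclei. The difference between these subsets was not tested. Zbtb16 in striatal projection neurons was lower after both stimuli, with 103 CPM after LPS, 93.9 CPM after poly(I:C) and 127 CPM after saline, at 0.807 [0.680 to 0.959] and 0.738 [0.589 to 0.920]. Excitatory neurons had 224, 240.0 and 212 CPM of Zbtb16 in the same order, at 1.06 [0.992 to 1.12] for LPS and 1.13 [1.05 to 1.22] for poly(I:C). With at least 1000 genes per nucleus the striatal log2 ratio after poly(I:C) was -0.02. In the striatal gate its own marker list summed to 3697 CPM after LPS, 5136 CPM after poly(I:C) and 3924 CPM after saline. The part of this difference in the Sgk1 and Zbtb16 ratios was not tested.

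Ddit4 in excitatory neurons was low after poly(I:C), with 6.24 CPM after LPS, 2.01 CPM after poly(I:C) and 8.26 CPM after saline, from 71, 11 and 64 UMIs. The poly(I:C) to saline ratio was 0.243 [0.116 to 0.465], the 1 of 9 measured genes past 2-fold lower in this class, against 4.23% of 14035 genes, with none higher, against 2.05%. In excitatory nuclei with Slc17a7, a vesicular glutamate transporter, it was 0.262 [0.0658 to 0.766]. Striatal and Adarb2-led neurons had Ddit4 ratios of 0.708 [0.284 to 1.63] and 0.795 [0.474 to 1.30] after poly(I:C). LPS was higher than poly(I:C) in excitatory neurons, at 3.11 [1.63 to 6.5], the only 1 of 9 genes past 2-fold higher there, against 3.12% of 14327 genes. Past 2-fold higher in Adarb2-led neurons after poly(I:C) was 1 of 9 genes, Cdkn1a at 2.32 [0.996 to 5.49], against 2.44% of 13966 genes, and none was past 2-fold lower, against 4.12%.

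Per1 had few UMIs outside neurons, where few nuclei were gated, but in saline its level in endothelial nuclei and astrocytes was above that of neurons. In saline it had 41.2 CPM [18.8 to 78.2] in endothelial nuclei and 59.6 CPM [16.2 to 152.6] in astrocytes, from 9 and 4 UMIs. The neuron gates of saline had 5.55 to 9.03 CPM, with intervals below both of these. Oligodendrocytes, their precursors and ependymal nuclei had 1 UMI each in saline, too few to set their levels against those of neurons. In Adarb2-led neurons Per1 had 4.57 CPM after LPS, 9.29 CPM after poly(I:C) and 5.55 CPM after saline, from 30, 32 and 38 UMIs. The ratio to saline was 1.67 [1.01 to 2.75] for poly(I:C) and 0.824 [0.493 to 1.37] for LPS. In excitatory neurons it had 7.55 CPM after LPS, 10.0 CPM after poly(I:C) and 9.03 CPM after saline, with intervals of both ratios to saline that included 1. LPS was below poly(I:C) in Adarb2-led neurons for Per1, at 0.492 [0.289 to 0.837], and for Cdkn1a, at 0.488 [0.211 to 1.12], the 2 of 9 genes past 2-fold lower there, against 2.42% of 13827 genes.

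The order of classes differed from gene to gene. In the LPS library Fkbp5 was highest in astrocytes, then oligodendrocytes, then microglia or macrophages, neighbours whose intervals overlapped, and these 3 lay apart from the classes below. Zbtb16 was highest in oligodendrocytes, oligodendrocyte precursors and endothelial nuclei, which did not differ beyond counting error, and lowest in ependymal nuclei and striatal projection neurons. In saline Zbtb16 was highest in endothelial nuclei and oligodendrocytes. Klf9 had its highest levels in endothelial nuclei of the poly(I:C) and saline libraries and in astrocytes of the LPS library, with overlapping intervals among the non-neuronal classes next to them.

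Over the 23 points of class and library with at least 30 nuclei, Pearson correlations of log2(CPM + 10) between genes of the set ranged from -0.14 (Fkbp5 with Per1) to 0.67 (Zbtb16 with Errfi1). Points of a library share its preparation and depth, and those of a class share its gate, so these values are a description. Fkbp5 had low values with Sgk1 (0.08), Zbtb16 (0.08) and Ddit4 (0.02), and its highest with Pdk4 (0.43). Among 11110 genes with at least 200 UMIs, the gene nearest to Fkbp5 was Esco1, a cohesin acetyltransferase, at r = 0.81. Nearest to Sgk1 were Cnot3 at 0.85, Ptpre at 0.78 and Slc22a15 at 0.76, and to Zbtb16 St6gal1 at 0.82, Gatm at 0.81 and Ctr9 at 0.80. Fkbp8 at 0.74 and Uaca at 0.74 followed an unnamed feature for Per1, and the next 2 features for Fkbp5, at 0.75 and 0.74, carry no gene symbol.

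The receptor itself was compared next. Nr3c1 had 196 CPM after LPS, 190.2 CPM after poly(I:C) and 184 CPM after saline over all barcodes, and Nr3c2, which encodes the mineralocorticoid receptor that also binds corticosterone, had 319, 299.7 and 305 CPM. Hsd11b1, which regenerates active corticosterone inside cells, had 3.39 CPM after LPS, 2.16 CPM after poly(I:C) and 2.81 CPM after saline. Over all barcodes, none of 16 measured genes of receptor machinery was past 2-fold in either direction after LPS or poly(I:C), against the 3.24% higher and 2.85% lower of all genes after LPS, and 2.87% and 4.37% after poly(I:C). Within classes some were. After LPS 3 of 12 were higher and 1 lower in astrocytes, against 18.9% and 12.1% of genes, and 2 of 14 higher and 1 lower in endothelial nuclei, against 14% and 17.1%. Striatal projection neurons had 1 of 16 higher after LPS, against 2.4%, and Adarb2-led neurons 1 of 16 lower, against 2.46%. Oligodendrocytes had 1 of 13 lower after LPS, against 9.13%, and oligodendrocyte precursors 1 of 9 higher, against 17.8%. Ependymal nuclei had 1 of 9 higher and 1 lower after LPS, against 18.2% and 12.5%. After poly(I:C) 3 of 14 were higher in endothelial nuclei, against 12.4%, and 1 of 16 lower in Adarb2-led neurons, against 4.12%. Hsd11b1 was among these in astrocytes, with 16 UMIs (78.3 CPM) after LPS and none after poly(I:C) or saline, where the exact upper limits are 93.6 and 54.97 CPM. In striatal projection neurons Hsd11b1 had 16, 2 and 1 UMIs after LPS, poly(I:C) and saline, at 11.6 [1.80 to 484.8] for LPS against saline. In both classes Hsd11b1 met the minimum of 10 UMIs only through the LPS library. The counts of receptor machinery after LPS in these classes are therefore not read. In endothelial nuclei Nr3c1 was lower after LPS, with 277 CPM after LPS, 578 CPM after poly(I:C) and 480.4 CPM after saline, at 0.577 [0.380 to 0.857] of saline for LPS and 1.2 [0.817 to 1.74] for poly(I:C). Nr3c2 had 155 CPM after LPS, 225.5 CPM after poly(I:C) and 311 CPM after saline there, at 0.498 [0.283 to 0.838] of saline after LPS. Nr3c1 in oligodendrocytes and astrocytes after LPS was at 1.07 [0.760 to 1.52] and 1.23 [0.732 to 2.16] of saline. In ependymal nuclei Nr3c1 was past 2-fold lower after LPS, from 3 UMIs against 11 in saline. Its level there was 40.6 CPM [8.37 to 118.6] after LPS and 248.7 CPM [124.1 to 444.9] after saline. The receptor chaperone gene Hsp90aa1 was at 1.19 [1.09 to 1.29] of saline after LPS and 1.49 [1.36 to 1.63] after poly(I:C).

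A wider list of 40 genes known as glucocorticoid-induced in various tissues had 38 members in the tables, of which 37 were measured. Over all barcodes 7 were past 2-fold higher and 1 past 2-fold lower after LPS, against 3.24% and 2.85% of all genes. Past 2-fold after poly(I:C) were 5 higher and 3 lower, against 2.87% and 4.37%, and the list's median log2 ratio was 0.44 after LPS and -0.01 after poly(I:C). Past 2-fold higher after both stimuli were the metallothionein Mt2A, the transglutaminase Tgm2 and the transcription factors Cebpb and Cebpd, genes that are also known to respond to cytokines. Mt2A had 11.8 CPM after LPS, 11.8 CPM after poly(I:C) and 0.507 CPM after saline, ratios of 23.3 [14.5 to 39.7] and 23.2 [14.4 to 39.8]. Tgm2 was at 10.9 [7.11 to 17.7] and 18.0 [11.7 to 29.0] of saline. Hormone levels were not analysed here.

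Sdc4, a cell surface proteoglycan, was past 2-fold higher after LPS than after saline, at 4.69 [3.05 to 7.44], as were Pla2g3 at 3.96 [2.43 to 6.70] and the phagocytic receptor Mertk at 2.14 [1.91 to 2.39]. Against poly(I:C) directly, Sdc4 was at 4.0 [2.44 to 6.91], Pla2g3 at 2.28 [1.41 to 3.81] and Fam107a at 2.10 [1.68 to 2.66] after LPS. Galnt15 was past 2-fold lower after both stimuli, at 0.348 [0.220 to 0.535] and 0.295 [0.165 to 0.497] of saline, and Mfsd2a, a lipid transporter of the blood-brain barrier, and Sult1a1 past 2-fold lower after poly(I:C), at 0.411 [0.285 to 0.582] and 0.281 [0.147 to 0.498]. The fifth gene higher after poly(I:C) was Mt1, at 3.19 [1.52 to 7.04]. In astrocytes the LPS nuclei held 204261 UMIs and the saline nuclei 67102, so list genes high after LPS met the minimum of 10 UMIs more easily, and no count of the list is read there. Single ratios for LPS against saline were Fam107a at 7.80 [2.95 to 29.2], Mertk at 3.32 [2.02 to 5.84] and Hif3a at 2.83 [1.12 to 9.14]. The lower neuronal RNA and the effect of scaling given above for this class apply to them too. In endothelial nuclei 8 of 23 were past 2-fold higher after LPS and 4 lower, against 14% and 17.1% of all genes there, and 8 higher and 8 lower after poly(I:C), against 12.4% and 22.9%. Fam107a was at 0.344 [0.163 to 0.662] after LPS, below 1 where it was above 1 in astrocytes.

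**Figure D4:**
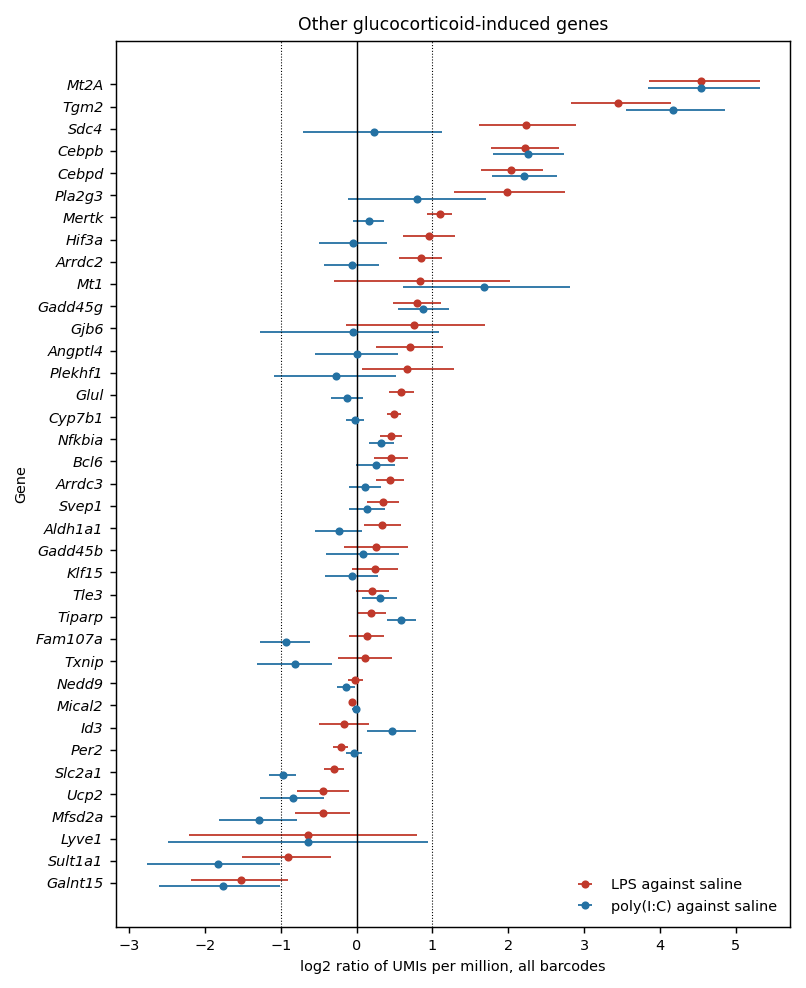
Log2 ratio of UMIs per 1000000 over all barcodes for 37 other glucocorticoid-induced genes, LPS against saline above and poly(I:C) against saline below within each gene, with 95% counting intervals. Dotted lines mark 2-fold. Mt2A, Tgm2, Cebpb and Cebpd lie right of the line after both stimuli, and Sdc4, Pla2g3 and Mertk do so after LPS but not after poly(I:C).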

How the data were processed

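Single-nucleus RNA was counted in 3 libraries, each pooling 4 brains, made with 10x Genomics 5' v2 chemistry. Values are whole UMI counts as the authors deposited them, 1 matrix per library, not scaled. Per the submitters' processing notes they came from Cell Ranger 7.0.0 on the build mRatBN7.2. Neither the cell calling nor the annotation release is given in the sources used here.

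The genes, gene lists and markers were chosen with earlier results of these data known, so the lists support nothing beyond their counts. Genes were matched by symbol, and a name listed more than once was not used. UMIs were summed per library or per gated class and divided by the total. Nuclei with at least 500 genes and at most 5% mitochondrial UMIs entered 12 classes. A non-neuronal class took at least 4 UMIs from 2 of its markers, more than 2 times the sum of every other such list, and no less than the neuronal list. Neurons took at least 3 neuronal UMIs and 2 or more of a type list. With 1 library per group there is no test and no p-value. Ratios carry exact conditional (Clopper-Pearson) 95% intervals and levels exact Poisson intervals, which cover counting error only. A count of 0 is set against a floor of 3 UMIs per class and library, which lies below its exact upper limit. Genes outside the set were named when past 2-fold over all barcodes with an interval that left out 1, up to 8 a comparison, plus Nr3c1, Nr3c2 and Hsd11b1; named Hsp90aa1, Hif3a, and Fam107a in endothelial nuclei were added after their values were seen. Doublets were predicted with Scrublet (scanpy 1.11.5, expected rate 0.8% per 1000 nuclei) and marked 12.1%, 5.36% and 4.29% of LPS, poly(I:C) and saline nuclei; they stayed in, and were left out as an alternative. The ratio code was tested on simulated data. Other tools were Python 3.11.15, numpy 2.4.6, scipy 1.17.1 and pandas 2.3.3.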

Additional observations from a re-analysis of the deposited data

Results flagged for a closer look

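Zbtb16 after poly(I:C) against saline was above 1 in excitatory neurons, at a ratio of 1.13 [1.05 to 1.22], and below 1 in striatal projection neurons, at 0.738 [0.589 to 0.920]. Counting intervals on opposite sides of 1 in 2 classes of the same comparison set this gene apart, and the difference between the classes was not tested, since each group had 1 library. With at least 1000 genes per nucleus the striatal log2 ratio was -0.02.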

How the results depend on the processing

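No paired analysis was possible because each treatment had 1 library and no replicate number. Of 810 single-gene values under alternatives, 791 stayed within the counting interval of the reported value and 17 moved outside it. A change of sign was tracked only for reported ratios of at least 2-fold in either direction, and 2 of these changed sign. Of the last 2, the log2 ratio of Klf9 in astrocyte nuclei, LPS against saline, was -0.35 without neuronal UMIs. The Log2 ratio of Fkbp5 in astrocyte nuclei, poly(I:C) against saline, was 0.0243 with all barcodes gated. Members past 2-fold higher over all barcodes after LPS numbered 2 with median-ratio scaling. Of the 11 pairs of gene and class past 2-fold higher after LPS, there were 2 with at least 1000 genes per nucleus, 5 with the gate of 6 UMIs from 3 genes, 5 with the neuronal list at most 0.25 of the class list, 6 with at least 30 UMIs and 6 with an interval that left out 1, chosen after seeing the data. The first 3 of these alternatives leave fewer nuclei and so fewer classes. After poly(I:C), against 3 pairs, there were 5 with all barcodes gated, 1 with at least 1000 genes, 8 with no UMI minimum and 0 with at least 30 UMIs. Median-ratio scaling divided the LPS to saline ratios by a class median. That median was -0.51 log2 in astrocytes, -0.61 in ependymal, 0.18 in endothelial and 0.17 in oligodendrocyte precursor nuclei. The scaling thus raised ratios in astrocytes and ependymal nuclei and lowered them in the others. Point ratios of Errfi1 in endothelial nuclei to saline ranged from 11.0 to 48.0 after LPS and from 9.24 to 61.5 after poly(I:C) under the alternatives that gave a ratio, with the lowest interval limits at 4.30 and 3.27. Depth limits most glial values, many of which rest on fewer than 30 UMIs.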
